A study of Mus musculus with 7 samples.

Results

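Sox2, Sox9 and Sox10, 3 of the 23366 genes in the deposited count table, encode transcription factors that salivary glands use to keep and direct their progenitor cells. They were taken by gene symbol, and their RNA was read in 7 bulk sequencing libraries of mouse salivary gland. The groups were submandibular gland at postnatal day 18 (P18, n = 2), parotid gland of adult mice aged 12 weeks (n = 3) and parotid gland at P18 (n = 2). Both are paired salivary organs with their own ducts. The labels name no strain, sex, genotype or treatment, and they leave unsaid if each replicate is its own animal. Every p-value here thus reflects the spread among these libraries alone, and that spread may be technical. One label field calls the material whole tissue, while the protocol for RNA extraction mentions isolated epithelial cells.

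SOX proteins bind DNA through an HMG box and act with partner factors to open and use enhancers. SOX2, of the SoxB1 group, is known in salivary glands for progenitors that give rise to acinar cells, whose upkeep depends on parasympathetic nerves. SOX9 and SOX10 belong to the SoxE group. SOX9 marks progenitors of the early buds downstream of FGF10 signalling, and SOX10 marks KIT-positive progenitors and later persists in acinar, intercalated duct and myoepithelial cells. SOX10 is also a defining factor of Schwann cells and melanocytes, and SOX9 of cartilage, so both can enter a dissected gland from outside its epithelium.

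The coding stretches within the HMG box are shown because they place Sox9 and Sox10 beside each other and Sox2 apart, and because reads from near-identical stretches could be shared in counting. They come from GENCODE M21 transcripts of build GRCm38, which is not the mm9 build of the deposited tables. Each is 237 bases long, written 5′ to 3′ on the coding strand, and capitals mark the 152 bases (64.1%) identical in all 3 genes. The Sox2 stretch covers coding bases 112 to 348 of 957 (chromosome 3, plus strand). The Sox9 stretch covers coding bases 298 to 534 of 1521 (chromosome 11, plus strand), and the Sox10 stretch covers coding bases 295 to 531 of 1398 (chromosome 15, minus strand).
Sox2: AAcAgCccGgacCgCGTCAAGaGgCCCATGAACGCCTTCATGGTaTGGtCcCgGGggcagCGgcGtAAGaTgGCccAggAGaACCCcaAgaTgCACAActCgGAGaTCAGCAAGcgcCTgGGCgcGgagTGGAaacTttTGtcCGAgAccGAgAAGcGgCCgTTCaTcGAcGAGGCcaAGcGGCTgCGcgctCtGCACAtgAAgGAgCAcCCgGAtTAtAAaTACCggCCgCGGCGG
Sox9: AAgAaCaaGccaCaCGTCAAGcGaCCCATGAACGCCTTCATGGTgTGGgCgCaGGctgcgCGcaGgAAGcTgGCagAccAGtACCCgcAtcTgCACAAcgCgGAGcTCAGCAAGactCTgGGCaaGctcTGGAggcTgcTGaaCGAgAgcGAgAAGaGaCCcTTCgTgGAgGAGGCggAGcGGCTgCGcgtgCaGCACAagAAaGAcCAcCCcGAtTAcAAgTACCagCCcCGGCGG
Sox10: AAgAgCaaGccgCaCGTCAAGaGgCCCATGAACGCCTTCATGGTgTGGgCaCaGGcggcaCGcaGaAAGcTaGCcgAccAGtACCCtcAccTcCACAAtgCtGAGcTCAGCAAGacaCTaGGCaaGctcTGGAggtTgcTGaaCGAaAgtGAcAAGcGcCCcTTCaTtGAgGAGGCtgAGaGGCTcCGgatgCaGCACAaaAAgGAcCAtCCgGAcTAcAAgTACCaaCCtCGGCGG
Sox9 and Sox10 were identical at 200 bases (84.4%), Sox2 and Sox9 at 170 (71.7%), and Sox2 and Sox10 at 161 (67.9%). Even so, the longest run of bases shared by whole transcripts was 44 for Sox9 and Sox10, 20 for Sox2 and Sox9, and 30 for Sox2 and Sox10. No 50-base word of any of the 3 genes occurred in a transcript of another gene. In the same annotation Sox2 lies within the span, introns included, of Sox2ot, a long non-coding gene on the same strand. No 50-base word of Sox2 occurred in the annotated Sox2ot transcripts either. Mixing of reads between the 2 genes was not tested. Neither Sox9 nor Sox10 overlapped another gene.

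The libraries held 12844534 to 28856127 counts. Levels below are CPM, counts scaled to a common library size that edgeR's TMM factors adjust for composition. The factors ranged from 0.640 to 1.72 and were lowest in adult parotid. TPM, which also divides by gene length, is used to set genes beside each other. P18 parotid replicate 2 stood apart. Its 10 gland epithelium markers summed to 253 CPM, against 666 in replicate 1, its adipocyte markers to 9656 CPM against 2739, and its skeletal muscle markers to 6159 CPM against 1269. Adult parotid replicate 1 held 272 CPM of Xist and no count of Ddx3y, whereas the other 6 libraries held at most 0.953 CPM of Xist and at least 65.8 CPM of Ddx3y. Fewer cells of a type and less RNA per cell cannot be told apart in bulk libraries.

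The 3 factors differed widely in level. Sox10 was the most abundant of them, Sox9 came next, and Sox2 had at most 16 counts in any library. By TPM averaged over the 7 libraries, Sox10 stood at 43.3 and Sox9 at 12.5, the highest means of the Sox family. The order was not that of every library: in P18 parotid replicate 2, Sox6 stood at 24.0 TPM against 21.5 for Sox10, and Sox4, Sox7, Sox13, Sox17 and Sox18 exceeded the 6.41 TPM of Sox9. Sox4 (14.1 TPM) exceeded Sox9 (13.9 TPM) in P18 submandibular replicate 2, Sox18 (5.70 TPM) exceeded it (5.04 TPM) in adult parotid replicate 1, and Sox13 (8.55 TPM) exceeded it (7.20 TPM) in adult parotid replicate 3. Within each of the 7 libraries Sox10 exceeded Sox9, and both exceeded Sox2.

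Sox10, the SoxE factor of KIT-positive progenitors, was higher in adult parotid than in P18 parotid. Its level was 96.5, 174 and 176 CPM in adult parotid replicates 1 to 3, against 61.5 and 19.4 CPM in P18 parotid replicates 1 and 2. The groups did not overlap, although adult parotid replicate 1 lay well under the other adult libraries. The means were 149 ± 45.5 CPM (SD, n = 3) in adult parotid and 40.5 ± 29.8 CPM (SD, n = 2) in P18 parotid, a 3.68-fold difference. The log2 difference was 1.88 ± 0.50 (SE), with an adjusted p of 0.0332 by edgeR's quasi-likelihood test over 15129 genes, of which 25.9% were called in this comparison, 10.7% as higher. Of Sox9 and Sox10, the 2 members tested, Sox10 was the one called.

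The call of Sox10 depended on the scaling, on single libraries and on the groups fitted. In a fit of these 2 groups alone it was lost (1.85, adjusted p = 0.0767). With plain library sizes the difference was 0.62 (adjusted p = 0.313) and on log2(TPM + 1) it was 0.14 (adjusted p = 0.816), while over all alternatives the adjusted p ranged from 0.000316 to 0.843. These settings moved the median of all genes as well, to -1.24 and -1.48, so that Sox10 lay 1.86 and 1.62 above that median, against 1.89 with TMM scaling. A change of scaling shifts nearly all genes by a like amount. The distance from the median therefore changes little by construction, and it lends the call no support. The shift applies to the other genes given at these settings too. In TPM itself the groups overlapped. Sox10 stood at 26.0, 56.8 and 57.0 TPM in adult parotid, against 73.1 and 21.5 TPM in P18 parotid, so that P18 parotid replicate 1 held the highest value of all 7 libraries.

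Leaving out P18 parotid replicate 1 gave a log2 difference of 2.99 (adjusted p = 0.00261), and leaving out replicate 2 gave 1.31 (adjusted p = 0.0440). The call was lost without adult parotid replicate 2 (1.75, adjusted p = 0.0953) or replicate 3 (1.74, adjusted p = 0.0830). It was also lost without P18 submandibular replicate 1 (adjusted p = 0.0667) or replicate 2 (adjusted p = 0.0666), which enter the fit through the shared spread. With P18 parotid replicate 2 and adult parotid replicate 1 both left out, the difference was 1.54 (adjusted p = 0.000316). Adult parotid replicate 1, whose sex-linked transcripts differed from the rest, had the lowest Sox10 of its group. The part of sex in that value was not tested.

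In submandibular gland Sox10 was not called against P18 parotid. It stood at 57.5 and 57.1 CPM in P18 submandibular gland, against 61.5 and 19.4 CPM in P18 parotid. The submandibular values lay between the P18 parotid values, close to the upper one. The log2 difference was 0.50 ± 0.52 (adjusted p = 0.514, with 24.4% of all genes called, 10.2% higher and 14.2% lower). Its direction turned on log2(TPM + 1) (-0.21), with plain library sizes (-0.15) and without P18 parotid replicate 2 (-0.085). The median of all genes was -0.79 on log2(TPM + 1) and -0.67 with plain library sizes, against -0.07 with TMM scaling. Without P18 parotid replicate 1 the log2 difference of Sox10 was 1.60.

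Against adult parotid, a comparison in which gland and age differ at once, Sox10 in P18 submandibular gland was lower in every library, at 57.5 and 57.1 CPM against 96.5 to 176 CPM. The log2 difference of -1.38 ± 0.49 missed the threshold (adjusted p = 0.0599, with 39.2% of all genes called, 19.8% as lower). It passed in DESeq2 (-1.36, adjusted p = 0.0137), in a fit of these 2 groups alone (-1.39, adjusted p = 0.00660), and without P18 parotid replicate 1 (adjusted p = 0.00699) or replicate 2 (adjusted p = 0.00694). Over all alternatives the adjusted p ranged from 1.91e-05 to 0.673. Ordered by mean CPM, Sox10 was highest in adult parotid, then P18 submandibular gland and P18 parotid, and the last 2 did not differ beyond their spread.

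Sox9, the SoxE factor that FGF10 signalling maintains in gland buds, passed the test in no comparison. Its level was 52.1 and 36.3 CPM in P18 submandibular gland, 28.6, 39.5 and 34.0 CPM in adult parotid, and 33.1 and 8.87 CPM in P18 parotid. The means were 44.2 ± 11.2 (SD, n = 2), 34.0 ± 5.46 (SD, n = 3) and 21.0 ± 17.2 CPM (SD, n = 2). P18 parotid replicate 2 alone lay far under the others, while P18 parotid replicate 1 fell inside the adult range. The submandibular values did not overlap those of P18 parotid, though the lower one exceeded P18 parotid replicate 1 by little.

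For Sox9, P18 submandibular minus P18 parotid was 1.08 ± 0.54 on the log2 scale (adjusted p = 0.185). Without P18 parotid replicate 1 it was 2.36 (adjusted p = 0.00203), and without replicate 2 it was 0.44 (adjusted p = 0.303), so the size was set by which P18 parotid library entered. Adult minus P18 parotid was 0.70 ± 0.50 (adjusted p = 0.317). Its direction turned on log2(TPM + 1) (-0.86) and with plain library sizes (-0.57), where the median of all genes moved to -1.48 and -1.24. Without P18 parotid replicate 1 the difference of Sox9 was 1.99. P18 submandibular minus adult parotid was 0.38 ± 0.48 (adjusted p = 0.562). In mean CPM the order was P18 submandibular gland, adult parotid, P18 parotid, and no neighbours in it differed beyond their spread.

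**Figure D1:**
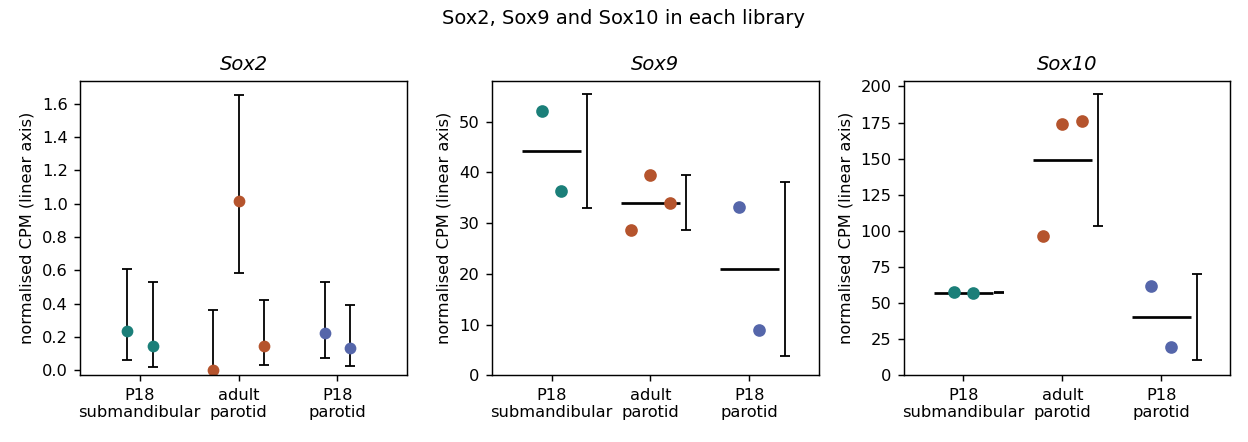
Normalised CPM (y axis, linear, a separate scale per gene) of Sox2, Sox9 and Sox10 in each library (points) by group (x axis). For Sox2 the bars are exact 95% Poisson intervals per library, and for Sox9 and Sox10 the horizontal lines are group means with bars of 1 SD; the adult parotid libraries lie highest for Sox10 at 96.5 to 176 CPM, and P18 parotid replicate 2 lies lowest for Sox9 at 8.87 CPM.

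Sox2, the SoxB1 factor of acinar progenitors, was barely detected. It had 4 and 2 counts in P18 submandibular gland, 0, 16 and 3 counts in adult parotid, and 5 and 3 counts in P18 parotid. These are 0.237 and 0.146 CPM in P18 submandibular gland, 0, 1.02 and 0.145 CPM in adult parotid, and 0.227 and 0.134 CPM in P18 parotid. One library, adult parotid replicate 2, was higher than the rest, with an exact 95% Poisson interval of 0.582 to 1.65 CPM. In adult parotid replicate 1, with no count, the same interval reaches 0.361 CPM. These intervals cover counting error only.

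Pooled over libraries, Sox2 was 0.196 CPM (95% interval 0.0721 to 0.427) in P18 submandibular gland, 0.407 CPM (0.245 to 0.636) in adult parotid and 0.180 CPM (0.0779 to 0.355) in P18 parotid. The intervals overlapped for every pair of groups. The adult value depended on single libraries: the mean over libraries was 0.388 CPM with all 3, 0.0766 CPM without adult parotid replicate 2 and 0.627 CPM without adult parotid replicate 1. Sox2 fell below edgeR's expression filter and so was not tested with the other genes. In the fit without that filter its log2 differences were 0.10 ± 1.40 (P18 submandibular minus P18 parotid, adjusted p = 0.989), 1.13 ± 1.19 (adult minus P18 parotid, adjusted p = 0.522) and -1.02 ± 1.25 (P18 submandibular minus adult parotid, adjusted p = 0.571). A difference in Sox2 was not detectable at this depth.

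Adult parotid replicate 2 also carried transcripts that mark other glands. Smgc, a submandibular secretory product, was at 24.1 CPM and Muc19, a mucin of mucous glands, at 218 CPM in that library, against at most 0.0483 CPM of either in the other adult libraries. The part of such transcripts in its Sox2 count was not tested. Sox2ot, which encloses Sox2, had 10 and 7 counts in P18 submandibular gland, 9, 19 and 7 counts in adult parotid, and 41 and 16 counts in P18 parotid. It was thus highest in a library with 5 counts of Sox2, while the library with 16 counts of Sox2 held the second highest count of Sox2ot.

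The ratio of Sox10 to Sox9 within a library does not depend on how libraries are scaled, and its group ranges lay apart. This ratio was added after the values had been seen. In TPM it was 1.69 and 2.40 in P18 submandibular gland, 5.16, 6.74 and 7.92 in adult parotid, and 2.84 and 3.35 in P18 parotid. No pair of groups overlapped, and both P18 parotid libraries gave similar ratios although their Sox9 and Sox10 levels lay far apart. Adult parotid had a ratio 2.11-fold that of P18 parotid, a log2 difference of 1.08 (exact two-sided permutation p = 0.2). P18 submandibular gland lay 1.53-fold under P18 parotid (log2 -0.62, exact p = 0.333) and 3.23-fold under adult parotid (log2 -1.69, exact p = 0.2). These are the smallest p-values that the group sizes allow.

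Sox9 and Sox10 were also set against the summed TPM of 10 gland epithelium markers of the same library, among them Krt8, Krt18 and Epcam. That sum was 1476 and 1605 TPM in P18 submandibular gland, 278, 365 and 355 TPM in adult parotid, and 1139 and 410 TPM in P18 parotid. Sox10 amounted to 2.39% and 2.08% of it in P18 submandibular gland, 9.33%, 15.6% and 16.1% in adult parotid, and 6.42% and 5.24% in P18 parotid. The groups did not overlap in any pair. Adult parotid lay 2.29-fold above P18 parotid (exact permutation p = 0.2), P18 submandibular gland 2.60-fold under P18 parotid (p = 0.333) and 5.94-fold under adult parotid (p = 0.2), all at the smallest p allowed.

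Sox9 amounted to 1.42% and 0.867% of the epithelial sum in P18 submandibular gland, 1.81%, 2.31% and 2.03% in adult parotid, and 2.26% and 1.56% in P18 parotid. Adult and P18 parotid overlapped, with a log2 difference of 0.12 (exact permutation p = 0.6). P18 submandibular gland lay under both, by 1.69-fold against P18 parotid (exact p = 0.333) and 1.84-fold against adult parotid (exact p = 0.2), the smallest values possible. P18 parotid replicate 2, the lowest library in Sox9 CPM, was not apart on this scale.

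**Figure D2:**
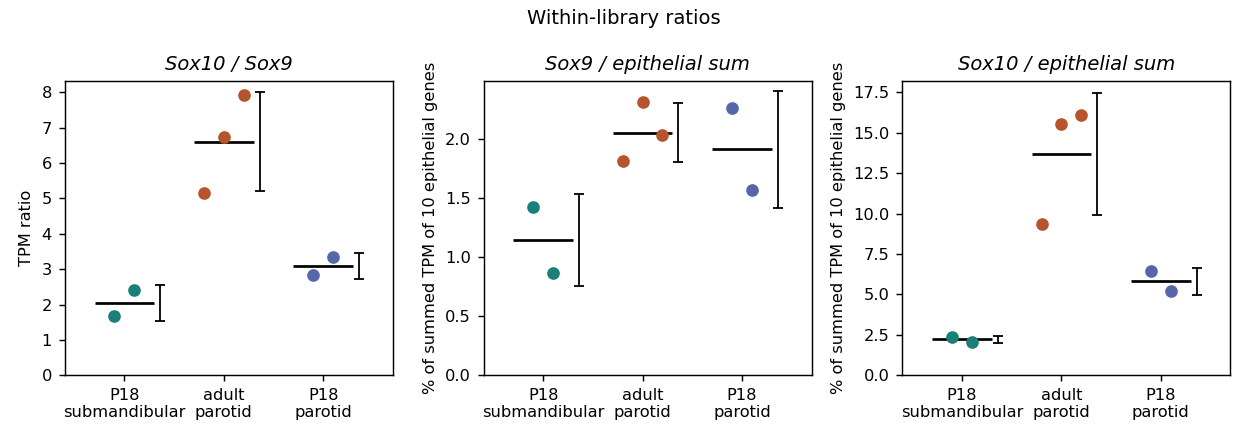
Ratio of Sox10 to Sox9 TPM, and Sox9 and Sox10 TPM as a percentage of the summed TPM of 10 epithelial markers (y axes, linear from 0), by group (x axis). Points are libraries, lines are group means and bars are 1 SD; the ratio of Sox10 to Sox9 is 1.69 to 2.40 in P18 submandibular gland, 5.16 to 7.92 in adult parotid and 2.84 to 3.35 in P18 parotid.

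**Figure D3:**
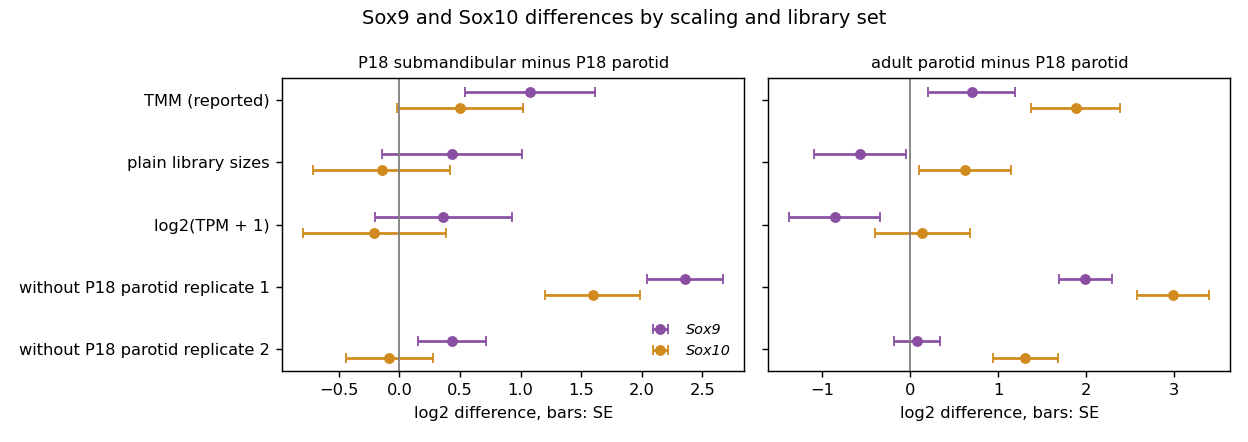
Log2 differences (x axes) of Sox9 and Sox10 between P18 submandibular gland and P18 parotid (left) and between adult and P18 parotid (right), under 5 settings (y axis), with bars of 1 SE. Sox10 in adult against P18 parotid stays above 0 throughout, from 0.14 on log2(TPM + 1) to 2.99 without P18 parotid replicate 1, whereas Sox9 there lies on both sides of 0. The median of all genes in that comparison was -1.48 on log2(TPM + 1) and -1.24 with plain library sizes.

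The Sox family, with the 3 members counted in it, held genes called in both directions. All 20 listed genes were in the table and 12 passed the expression filter. Sry, Sox1 and Sox3 had no count in any library, and Sox2, Sox14, Sox15, Sox21 and Sox30 had too few counts to be tested. In P18 submandibular gland against P18 parotid, 1 gene was called higher and 4 lower, where 10.2% of all genes were called higher and 14.2% lower. The median log2 difference was -0.60, against -0.07 over all genes tested. In adult against P18 parotid, 2 were called higher, Sox10 being 1 of them, and 3 lower, where 10.7% of all genes were called higher and 15.1% lower. The median was -0.77, against -0.01 over all genes. The counts of 5 depended on single libraries, as did the number of calls over all genes, so this is not particular to the Sox family. In adult against P18 parotid, 1 of 12 Sox genes tested was called without adult parotid replicate 2, beside 1306 of 15052 genes. Without adult parotid replicate 3 it was 2 of 12, beside 1861 of 15050 genes. In P18 submandibular gland against P18 parotid, 4 of 12 were called in each of these fits, beside 2385 of 15052 and 2717 of 15050 genes. Counts of fits without a P18 library, which left 1 library in a group, moved as well.

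Sox4, a SoxC factor of immature and proliferating cells, was the gene called higher in P18 submandibular gland. It had 20.0 and 26.3 CPM in P18 submandibular gland, 5.58, 4.71 and 5.99 CPM in adult parotid, and 13.9 and 9.32 CPM in P18 parotid. The groups did not overlap. P18 submandibular minus P18 parotid was 1.00 ± 0.27 (adjusted p = 0.0369), though 0.07 on log2(TPM + 1), and adult minus P18 parotid was -1.10 ± 0.25 (adjusted p = 0.0207). Sox11, of the same SoxC group, was lower in adult than in P18 parotid (-2.59, adjusted p = 0.0171) but held at most 1.12 CPM in any library.

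Sox13, a SoxD factor, was higher in adult than in P18 parotid, as Sox10 was. It had 16.0 and 10.3 CPM in P18 submandibular gland, 23.9, 32.7 and 34.4 CPM in adult parotid, and 11.9 and 7.93 CPM in P18 parotid. Adult minus P18 parotid was 1.61 ± 0.30 (adjusted p = 0.0111), a direction that turned on log2(TPM + 1) (-0.25). Sox6, a SoxD factor with a role in muscle and cartilage, was lower in P18 submandibular gland (-4.08, adjusted p = 0.00671) and in adult parotid (-2.62, adjusted p = 0.0113) than in P18 parotid. It stood at 68.1 CPM in P18 parotid replicate 2 and 21.1 CPM in replicate 1, in the same order as the skeletal muscle markers of these libraries. Adult parotid replicate 3, whose muscle markers summed to 5052 CPM, held 9.36 CPM of Sox6. The part of muscle in this value was not tested.

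Sox7, Sox17 and Sox18, the SoxF factors of endothelium, were lower in P18 submandibular gland than in P18 parotid. Their log2 differences were -2.55 (adjusted p = 0.00957), -2.72 (adjusted p = 0.0270) and -2.40 (adjusted p = 0.0180). All 6 endothelial markers tested were lower there too, summing to 101 and 112 CPM in P18 submandibular gland, against 347 and 718 CPM in P18 parotid, and 4 of them were lower in adult parotid (211 to 266 CPM). In adult against P18 parotid no SoxF gene was called: Sox7 was at -1.04 (adjusted p = 0.0710), Sox17 at -1.15 (adjusted p = 0.155) and Sox18 at 0.56 (adjusted p = 0.348). Against P18 parotid, 14.2% of all genes were called lower in P18 submandibular gland and 15.1% in adult parotid. The part of endothelium in the SoxF values was not tested. Sox8, the remaining SoxE gene, was low throughout, at 0.769 and 0.879 CPM in P18 submandibular gland, 0.588, 0.382 and 0.338 CPM in adult parotid, and 0.862 and 1.03 CPM in P18 parotid. It was not called in either comparison with P18 parotid (adjusted p = 0.773 and 0.0817).

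**Figure D4:**
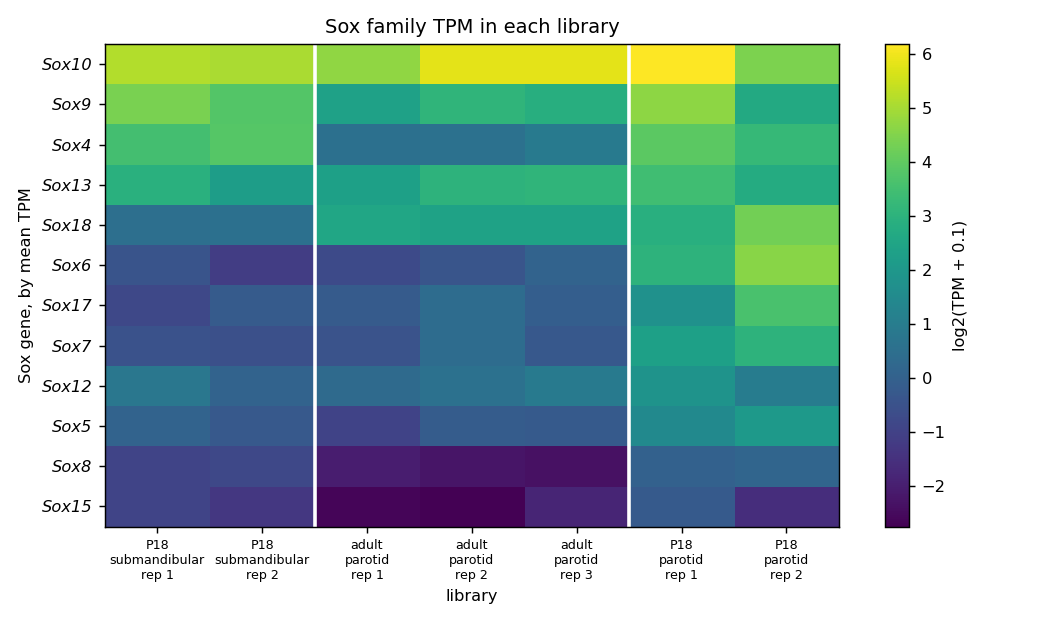
Heat map of log2(TPM + 0.1) for the 12 Sox genes with a mean of at least 0.2 TPM (rows, ordered by mean TPM) in the 7 libraries (columns, grouped by white lines). Sox10 is the top row with a mean of 43.3 TPM and Sox9 the second with 12.5 TPM; Sox6, Sox7, Sox17 and Sox18 are brightest in P18 parotid replicate 2.

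Sox10 and Sox9 are also expressed outside epithelium, and markers of such cells were counted. Of 11 Schwann cell and glia markers tested, 2 were higher and 6 lower in P18 submandibular gland than in P18 parotid (median -1.81), and 1 was higher and 4 lower in adult than in P18 parotid (median -0.85). The list summed to 138 and 150 CPM in P18 submandibular gland, 196 to 239 CPM in adult parotid, and 296 and 299 CPM in P18 parotid. Of all genes, 10.2% were called higher and 14.2% lower in P18 submandibular gland against P18 parotid. In adult against P18 parotid, 10.7% were called higher and 15.1% lower. The part of Schwann cells and glia in the Sox10 values was not tested.

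Of melanocyte markers, 3 of 7 had enough counts to be tested. The shares of all genes called were 10.2% higher and 14.2% lower in P18 submandibular gland against P18 parotid. They were 10.7% and 15.1% in adult against P18 parotid. Against P18 parotid edgeR called none in P18 submandibular gland (0 at an unadjusted p under 0.05) and 1 lower in adult parotid. The list summed to 21.4 to 24.2 CPM in P18 submandibular gland, 10.2 to 12.2 CPM in adult parotid and 17.4 to 23.0 CPM in P18 parotid. Of 6 cartilage markers tested, 1 was lower in P18 submandibular gland than in P18 parotid and none was called in adult parotid against it (0 at an unadjusted p under 0.05 in edgeR). That list summed to 12.2 to 14.8 CPM in P18 submandibular gland, 8.33 to 17.9 CPM in adult parotid and 9.01 to 12.6 CPM in P18 parotid. Of 5 neuron markers tested, 4 were higher in P18 submandibular gland than in P18 parotid (median 3.42) and none was called in adult parotid (2 at an unadjusted p under 0.05, both lower).

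The next counts stand beside 10.2% of all genes called higher and 14.2% lower in P18 submandibular gland against P18 parotid. In adult against P18 parotid these shares were 10.7% and 15.1%. Of 10 gland epithelium markers tested, 8 were higher in P18 submandibular gland than in P18 parotid (median 1.85). In adult against P18 parotid 1 was higher (median 0.96), and 6 were higher at an unadjusted p under 0.05. Their sums were 1656 and 1851 CPM in P18 submandibular gland, 694 to 781 CPM in adult parotid, and 666 and 253 CPM in P18 parotid. Of 9 myoepithelial markers, 7 were higher in P18 submandibular gland (median 1.14) and 3 were higher and 1 lower in adult parotid (median 0.49). Of 8 adipocyte markers, all were lower in P18 submandibular gland, with sums of 24.9 and 28.9 CPM against 2739 and 9656 CPM in P18 parotid, and 2 were lower in adult parotid. Of 8 skeletal muscle markers 7, and of 8 lymphoid markers all, were lower in P18 submandibular gland than in P18 parotid, and in adult against P18 parotid edgeR called none of the muscle markers (2 at an unadjusted p under 0.05) and 1 lymphoid marker, which was higher. Their part in the Sox9 and Sox10 differences was not tested.

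Secretory products of both glands were counted. Bpifa2, a parotid secretory protein, was at 81.1 and 263 CPM in P18 submandibular gland, 367998 to 499752 CPM in adult parotid, and 64437 and 17559 CPM in P18 parotid. Of 4 parotid acinar markers, 3 were lower in P18 submandibular gland than in P18 parotid. In adult against P18 parotid 1 was higher and 3 did not pass. Of 4 submandibular markers, 3 were higher in P18 submandibular gland and 2 in adult parotid than in P18 parotid. They summed to 219354 and 255723 CPM in P18 submandibular gland, 13285 to 21680 CPM in adult parotid, and 37.1 and 16.3 CPM in P18 parotid. In adult parotid Smgc averaged 8.05 CPM and Prol1 78.6 CPM, and Muc19 stood at the low values given above. The adult parotid sum thus came almost all from Car6, the remaining gene of the list. It does not show that the listed submandibular products as a set were abundant in adult parotid. Called higher were 10.2% of all genes in P18 submandibular gland and 10.7% in adult parotid, and called lower 14.2% and 15.1%.

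Genes known from salivary progenitors and lineages were called mostly higher than in P18 parotid. Of 18 tested, 9 were higher and none lower in P18 submandibular gland (median 1.31), and 7 were higher and 1 lower in adult parotid (median 0.57). Krt5, Krt14 and Trp63 are also on the myoepithelial list, Etv4 and Etv5 on the FGF list, and Prol1 on the submandibular list. The counts of these lists are therefore not independent. Of all genes, 10.2% and 10.7% were called higher in these comparisons. The list summed to 999 CPM in P18 parotid replicate 1 and 414 CPM in replicate 2, the library with fewer epithelial transcripts, and the epithelium markers had positive medians in both comparisons too (1.85 and 0.96). The part of epithelial content was not tested. Krt5, a basal cell keratin of progenitors, had 21.1 and 24.2 CPM in P18 submandibular gland, 21.5, 25.4 and 26.4 CPM in adult parotid, and 10.6 and 4.35 CPM in P18 parotid. It was higher in P18 submandibular gland (1.60 ± 0.38, adjusted p = 0.0247) and in adult parotid (1.71 ± 0.36, adjusted p = 0.0166, but -0.073 on log2(TPM + 1)). Its partner Krt14 was higher in both as well, by 1.53 (adjusted p = 0.0214) and 1.12 (adjusted p = 0.0417), the second turning to -0.13 with plain library sizes.

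Aqp5, the water channel of acinar cells, had 276 and 264 CPM in P18 submandibular gland, 182, 224 and 199 CPM in adult parotid, and 83.7 and 30.3 CPM in P18 parotid. It was higher in P18 submandibular gland (2.24, adjusted p = 0.0139) and in adult parotid (1.82, adjusted p = 0.0202) than in P18 parotid. Ascl3, a factor of duct progenitors, was higher in P18 submandibular gland (2.81, adjusted p = 0.00393) and not called in adult parotid (0.64, adjusted p = 0.151). Axin2, a target of Wnt signalling, was lower in adult parotid (-1.65, adjusted p = 0.0141).

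Kit, the receptor that marks SOX10-positive progenitors, was called in neither comparison with P18 parotid. It had 34.1 and 38.9 CPM in P18 submandibular gland, 47.1, 30.1 and 40.6 CPM in adult parotid, and 71.6 and 36.7 CPM in P18 parotid. P18 parotid replicate 1 was the highest library, and the other 6 lay close together. The log2 difference from P18 parotid was -0.57 ± 0.34 in P18 submandibular gland (adjusted p = 0.264) and -0.47 ± 0.31 in adult parotid (adjusted p = 0.285).

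Genes of FGF signalling, which maintains Sox9 in developing glands, were called at a rate near that of all genes (24.4% and 25.9%). Of 15 tested, 2 were higher and 2 lower in P18 submandibular gland (median 0.31), and 1 was higher and 2 lower in adult parotid (median 0.02). The ligand Fgf10 stood at 12.3 and 10.8 CPM in P18 submandibular gland, 12.3, 9.16 and 11.1 CPM in adult parotid, and 7.67 and 6.99 CPM in P18 parotid, with no overlap between P18 parotid and the other groups. It did not pass the test against P18 parotid (0.66, adjusted p = 0.0801 in P18 submandibular gland, and 0.57, adjusted p = 0.0900 in adult parotid). Its receptor Fgfr2 was higher in P18 submandibular gland (1.33, adjusted p = 0.0258), whereas Fgfr1 (-1.04, adjusted p = 0.0312) and the receptor-like Fgfrl1 (-1.37, adjusted p = 0.0238) were lower. In adult parotid the feedback inhibitors Spred1 (-1.05, adjusted p = 0.00985) and Spry4 (-1.70, adjusted p = 0.0211) were lower. Fgf1 was higher in P18 submandibular gland (1.08, adjusted p = 0.0169) and in adult parotid (0.76, adjusted p = 0.0367), the second turning to -1.01 on log2(TPM + 1).

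Inputs from nerves and ErbB ligands, which act on gland progenitors, were counted over 13 genes. Against P18 parotid 4 were higher and none lower in P18 submandibular gland (median 1.05), and 1 was higher and 1 lower in adult parotid (median 0.30). Of all genes 24.4% and 25.9% were called in either direction. Chrm1, a muscarinic acetylcholine receptor, had 8.64 and 8.06 CPM in P18 submandibular gland, 1.96, 1.91 and 2.32 CPM in adult parotid, and 2.63 and 0.717 CPM in P18 parotid (2.31 ± 0.55 for P18 submandibular minus P18 parotid, adjusted p = 0.0234). Vip, a neuropeptide of parasympathetic nerves, had 124 and 77 counts in P18 submandibular gland, 1 count in adult parotid and none in P18 parotid, and its receptor Vipr1 was higher in P18 submandibular gland than in P18 parotid (2.09, adjusted p = 0.0226). Erbb4, a neuregulin receptor, was lower in adult than in P18 parotid (-4.80, adjusted p = 0.00228), while Nrtn, a trophic factor for parasympathetic neurons, was higher (1.98, adjusted p = 0.0277).

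Genes that act with SoxE factors in neural crest, or that SOX10 drives there, were counted next. Of 7 tested, 2 were higher and 2 lower in P18 submandibular gland (median 0.29), and 1 was higher and 1 lower in adult parotid (median -0.50), where 24.4% and 25.9% of all genes were called. Ret, a receptor of GDNF-family ligands, had 133 and 115 CPM in P18 submandibular gland, 5.19, 5.22 and 5.41 CPM in adult parotid, and 4.27 and 4.03 CPM in P18 parotid. The submandibular libraries were far above all others, at 4.90 ± 0.20 over P18 parotid (adjusted p = 0.000299). Ednrb, an endothelin receptor, was lower in P18 submandibular gland (-2.16, adjusted p = 0.0182) and in adult parotid (-1.38, adjusted p = 0.0424). Cx3cl1, a chemokine, was higher in both (1.23 and 1.13, each adjusted p = 0.0173), the second turning to -0.11 with plain library sizes. Erbb3, a receptor that SOX10 drives in Schwann cells, had 76.5 and 83.1 CPM in P18 submandibular gland, 21.5, 31.3 and 34.3 CPM in adult parotid, and 60.0 and 22.0 CPM in P18 parotid, and it was called in neither comparison with P18 parotid (adjusted p = 0.155 and 0.372).

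The genes whose profile over the 7 libraries was most like that of each member were found by the root mean square difference of centred log2 CPM. For Sox9 these were Runx2 (0.133), Ccdc162 (0.167), Rnf43 (0.174), Shroom3 (0.175) and Slc37a1 (0.175). Runx2, a factor of bone and cartilage that is also expressed in glands, had 23.9 and 16.8 CPM in P18 submandibular gland, 11.6, 16.7 and 16.3 CPM in adult parotid, and 17.3 and 3.45 CPM in P18 parotid, with the same low library as Sox9. None of the 5 was called in any comparison. They were picked for likeness to Sox9, which was not called either. The shared low library and the lack of calls therefore follow from the choice and are given as description.

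For Sox10 they were Slc25a29 (0.166), Ddr1 (0.222), Tmem180 (0.229), Tfap2a (0.254) and Unc5a (0.259). Ddr1, a collagen receptor of epithelium, had 36.4 and 31.3 CPM in P18 submandibular gland, 55.4, 72.3 and 77.5 CPM in adult parotid, and 34.7 and 12.2 CPM in P18 parotid. It repeated the group order of Sox10. Tfap2a, a transcription factor of neural crest and epithelium, had 7.34 and 5.35 CPM in P18 submandibular gland, 11.4, 22.6 and 23.8 CPM in adult parotid, and 10.2 and 1.84 CPM in P18 parotid. Since these genes were picked for likeness to Sox10, their differences are given as description. Adult minus P18 parotid was 1.85 for Slc25a29, 1.55 for Ddr1, 1.90 for Tmem180, 1.69 for Tfap2a and 2.41 for Unc5a. The 2 members were not close to each other: at a distance of 0.757, Sox10 ranked 4137 of 15128 genes for likeness to Sox9, and Sox9 ranked 1281 for likeness to Sox10. Sox2 had too few counts for such a profile.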

How the data were processed

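Polyadenylated RNA was sequenced from 7 libraries after an Illumina TruSeq preparation, per the labels' protocols. The authors deposited raw counts per gene symbol and TPM. The submitters' processing notes name build mm9 and, with no roles, DESeq2 1.20.0, featureCounts 1.5.1, Bowtie2 2.2.6 and TopHat2 2.1.1. Settings for strand and multi-mapping reads are not stated there. The count table has 2 further columns that match no sample label and were not used.

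Tests used the deposited counts in edgeR 4.0.16 (R 4.3.3): TMM scaling, its expression filter (minimum count 10, minimum total 15, leaving 15129 genes), 1 quasi-likelihood fit over the 3 groups (4 residual degrees of freedom), and Benjamini-Hochberg adjustment with a threshold of 0.05. The code was tested on simulated data. Log2 differences are first-named minus second-named group, with SE. The comparisons with P18 parotid share its libraries. Alternatives used DESeq2 1.42.0, limma 3.58.1 on log2(TPM + 1) and log2(TPM + 0.1), other scalings, and libraries left out. Ratios used exact two-sided permutation tests (scipy 1.17.1). A list was described by its calls and median, with no list test.

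No replicate pair agreed within sampling noise (chi-square per degree of freedom 13.3 to 197), so none was merged. Named genes were the 3 members, Sox genes called, from each list the 2 genes of smallest adjusted p per direction and comparison with P18 parotid, and the 5 genes most alike to each member (log2 CPM with prior count 2). Not all are printed. Fgf10, Kit, Erbb3, Sox8, Sox2ot, Smgc, Muc19, Bpifa2, Xist and Ddx3y were added outside that rule, with values known. The members and lists were chosen with earlier results of these data known.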

Additional observations from a re-analysis of the deposited data

How the results depend on the processing

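With plain library sizes Sox10 in adult minus P18 parotid was 0.62, on log2(TPM + 1) 0.14 with or without a filter, on log2(TPM + 0.1) 0.14, and with only the groups compared 1.85 (adjusted p = 0.0767). Leaving out 1 library gave 1.31 to 2.99. For P18 submandibular minus P18 parotid, Sox10 was -0.15 with plain library sizes and -0.21 in all 3 TPM settings, 1 library left out gave -0.085 to 1.60, and without P18 parotid replicate 2 and adult parotid replicate 1 together it was -0.085. For P18 submandibular minus adult parotid, Sox10 passed in DESeq2 (-1.36), with only the groups compared (-1.39) and without both libraries just named (-1.63), and 1 library left out gave -1.61 to -1.24. Sox9 in adult minus P18 parotid was -0.57 with plain library sizes, -0.86 on log2(TPM + 1) with or without a filter and -0.92 on log2(TPM + 0.1), and 1 library left out gave 0.071 to 1.99. Sox9 in P18 submandibular minus P18 parotid was 0.44 to 2.36 with 1 library left out. Sox2 averaged 0.299 CPM in P18 parotid with plain library sizes, against 0.181 with TMM.

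In adult minus P18 parotid, direction turned for Sox13 on log2(TPM + 1) with or without a filter (-0.25) and log2(TPM + 0.1) (-0.28), and at the same settings for Kcnn4 (-0.11 and -0.11), Krt5 (-0.073 and -0.068) and Ddr1 (-0.19 and -0.19), and for Slc25a29 on log2(TPM + 1) with or without a filter (-0.00197). With plain library sizes, log2(TPM + 1) with or without a filter and log2(TPM + 0.1), Fgf1 was -0.46, -1.01 and -1.11, Cx3cl1 -0.11, -0.64 and -0.77, and Krt14 -0.13, -0.68 and -0.71. The median of all genes moved down at these settings too. It was -1.24 with plain library sizes, -1.48 on log2(TPM + 1) (-1.24 without a filter) and -1.83 on log2(TPM + 0.1).

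Calls over all genes moved between settings too. In adult minus P18 parotid 3915 of 15129 genes were called in the reported fit. On log2(TPM + 1) it was 13059 of 15129, and with only the groups compared 2183 of 14822. In P18 submandibular minus P18 parotid these numbers were 3686, 9699 and 1349 of 14634. In P18 submandibular minus adult parotid they were 5927, 9128 and 7596 of 14399. Sox family calls numbered 5 in each comparison. In P18 submandibular minus P18 parotid they were 2 with only the groups compared and 0 to 8 with 1 library left out. In adult minus P18 parotid they were 3 with only the groups compared, 8, 8 and 9 in the TPM settings and 1 to 8 with 1 library left out. In P18 submandibular minus adult parotid they were 8 in DESeq2, 8 with only the groups compared, 3 in each TPM setting, 9 without P18 parotid replicate 2 and adult parotid replicate 1, and 2 to 8 with 1 library left out.

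Against Epcam alone, the log2 difference of Sox9 per epithelial transcript in P18 submandibular minus adult parotid was -0.40, against -0.88 for the list, and that of Sox10 was -1.03 against -1.38 (P18 submandibular minus P18 parotid) and -2.09 against -2.57 (P18 submandibular minus adult parotid). With 1 library left out, Sox9 per epithelial transcript was -0.15 to 0.38 in adult minus P18 parotid and -1.23 to -0.52 in P18 submandibular minus adult parotid.

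With the replicate number as a block, Sox10 in adult minus P18 parotid was 1.84 (adjusted p = 0.0977), and Sox family calls were 4 in P18 submandibular minus P18 parotid, 2 in adult minus P18 parotid and 3 in P18 submandibular minus adult parotid. Same-numbered libraries of the P18 groups deviated together at r = 0.24. Those of P18 parotid and adult parotid did so at 0.08 and 0.01. For P18 submandibular gland and adult parotid the values were -0.02 and -0.02. In a group of 2 libraries the deviations mirror each other, so these values cannot tell if equal numbers mark pairs. The labels do not say. The block changed no other call of Sox9 or Sox10.

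The mean CPM of Sox2 in adult parotid was 0.0766 without adult parotid replicate 2. Groups of 2 and 3 libraries limit every call, and the depth of Sox2 counts limits that gene. The cause of these shifts was not tested.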
